A study of Mus musculus with 753 samples.

Results

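The 44 genes described here build, cut, cap and anchor actin filaments. They were taken by symbol, as genes of the actin cytoskeleton and cell migration and not by a threshold on these data, though with earlier results of these data known, from 19640 genes with values in both sequencing batches. Of the 44 genes, 43 passed a filter on low levels and entered the tests among 10691 genes. The gene left out was Tmsb4x, which encodes the actin monomer binding protein thymosin beta 4.

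The cells were sorted from mouse epidermis as single keratinocytes, each sequenced as its own Smart-seq2 library. All mice carried 1 copy each of a Gata6-driven CreERT2 and of a floxed tdTomato reporter at Rosa26 (Gata6EGFPCreERT2, Rosa26-fl/STOP/fl-tdTomato), were 8 to 12 weeks old, and had received topical 4-hydroxytamoxifen on clipped back skin. Cells that expressed Gata6 at labelling, and their progeny, carry tdTomato and are called lin+. Cells without tdTomato are called lin-, and they include any Gata6-lineage cell in which the reporter did not recombine. Gata6 is known to mark differentiated cells of the sebaceous duct and the upper follicle. By the deposited identities, 44 of the unwounded lin+ cells were labelled basal cells of the interfollicular epidermis (IFE-B). They were 23 of 47 cells in replicate 1 and 21 of 46 in replicate 2. Another 34 were labelled upper hair follicle cells of the kind named uHF-I. These labels rest on expression. The study itself found no basal lin+ cells in sections of unwounded skin, and low Itga6 expression in most day 0 cells. Unwounded skin (day 0) was compared with full-thickness wounds at days 6, 9 and 11. Days 0, 9 and 11 had 2 replicates per lineage, replicate 1 being the first sequencing batch and replicate 2 the second. The labels give day 6 no replicate number, so its cells, from several pooled mice of the second batch, formed 1 set per lineage. This gave 14 sets with 26 to 93 cells each. Both lineages of a day and replicate came from the same skin. Unwounded skin was taken from mice that also gave the wounds of days 9 and 11, but the labels do not say which, so comparisons of those days with day 0 share animals that the model could not represent beyond the batch. The study asked how Gata6-lineage cells change as they return to a stem cell state in wounds, a process in which cells leave the follicle and move into the wound bed.

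The median number of reads per cell ranged from 1806780 to 5967311 between sets, and the median number of genes detected from 1776 to 3228. Epidermal markers were present throughout, with reads of Krt14 in 613, Krt15 in 583 and Krt5 in 561 cells of all sets together. The summed level of 14 immune markers was 1.11 to 265 CPM in a set, and that of 8 fibroblast markers 0.0131 to 73.9 CPM. The 12 keratinocyte markers summed to 20262 to 57230 CPM. CPM here is the deposited value of a gene scaled to the cell's total. That value was reads in the first batch and reads per transcript length (RPKM) in the second. Ptprc, the defining marker of leukocytes, had reads in 12 cells. The 4 endothelial markers summed to 0 to 120 CPM. The 4 melanocyte markers (Dct, Pmel, Mlana and Tyrp1) were at most 41.8 CPM in a set except in lin- wounds of the second batch, at 481 CPM on day 6 and 6384 and 6610 CPM in the late sets, against 6.53 CPM in lin- day 0 of that batch. That signal came from 5 lin- cells, annotated as IFE-B or outer bulge (OB) cells, each with reads of all 4 markers and 43874 to 157371 CPM in them, while no other cell exceeded 982 CPM. Without these 5 cells the members called by share in late wounds were 22 in lin+ and 17 in lin- cells, the same genes as with them, of 21.7% and 22.0% of all genes.

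Actin filaments grow at their barbed ends from monomers that profilin delivers. The Arp2/3 complex starts new branches under the control of Rac and Cdc42, and pushes the leading edge of a moving cell forward. Capping protein stops growth and cofilin returns monomers to the pool. Myosin II contracts the filaments, tropomyosins stabilise them, and talin, vinculin and zyxin tie them to integrin adhesions. In the epidermis these steps let keratinocytes crawl over the wound and hold basal cells to the basement membrane.

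Many actin genes are known targets of serum response factor, which binds the CArG box and whose cofactor MRTF is released when actin monomers are used up. The promoters of 42 of the 44 genes, 250 bases before to 50 after the start (RefSeq, GRCm38.p6), were therefore searched for a CArG box of 10 bases on both strands. Rac1 and Actb had no entry. The box was found in 4 of the 42 genes (9.52%) and in 1.81% of 27025 genes with a promoter of this length. The windows around the boxes are shown because a match to this motif is what 4 of the members share. The capitals mark the CArG box, and each line reads 5′ to 3′ on the strand of the gene.
Arpc4: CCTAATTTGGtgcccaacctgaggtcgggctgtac
Myl6: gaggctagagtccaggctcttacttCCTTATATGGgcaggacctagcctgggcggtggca
Actg1: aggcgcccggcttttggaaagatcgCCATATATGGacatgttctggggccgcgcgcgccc
Vcl: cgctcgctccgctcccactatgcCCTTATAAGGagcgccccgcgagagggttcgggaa

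The Arpc4 window is chr6:113377863-113377897 on the plus strand, with the box at the far edge of the promoter, 250 to 241 bases before the start. The Myl6 window is chr10:128493025-128493084 on the minus strand, with the box 50 to 41 bases before the start used. That window lies within the gene, which spans chr10:128490859-128493886, so the start used is an internal one. The Actg1 window is chr11:120348551-120348610 on the minus strand, with the box 90 to 81 bases before the start. The Vcl window is chr14:20929148-20929205 on the plus strand, with the box 227 to 218 bases before the start used. That start lies slightly inside the gene, which begins at chr14:20929383. Arpc4 encodes a subunit of the Arp2/3 complex, Myl6 the essential light chain of non-muscle myosin, Actg1 gamma-actin and Vcl vinculin. A match is a run of letters and was not tested as a binding site.

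Per length of the counted transcript, and scaled to the cell's total like CPM, the members spanned a wide range of levels. Beta-actin (Actb, chr5:142903115-142907976, GRCm38.p6) was the most abundant in both batches, at a length-scaled level of 5749 in the first batch and 7284 in the second. Profilin (Pfn1) followed at 2007 and 3538, and cofilin (Cfl1) at 1111 and 1268. Tmsb4x was last at 0.371 and 0.140, and is uncertain, since the gene has near-identical copies elsewhere in the genome, whose part in its low count was not tested. The order of the 44 genes by this length-scaled level was related between the batches, with a Spearman correlation of 0.654 across genes, which share libraries and are not independent. The largest gap was in Actr2, the Arp2 subunit, at 22.0 in the first batch and 664 in the second. Levels were therefore compared only with batch in the model.

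In wounds of days 9 and 11 many of the members were detected in more cells, in both lineages, while their mean levels were not called different from day 0 in 42 of the 43 genes. Of the 43 members tested, 22 were found in a larger share of lin+ cells and 17 in a larger share of lin- cells, and none in a smaller share. Among them were the small GTPases Cdc42 and Rac1, which drive filopodia and lamellipodia, the tropomyosins Tpm2, Tpm3 and Tpm4, and the myosin light chains Myl6, Myl12a and Myl12b. The background was high: 21.9% of the 10691 genes tested were called in lin+ cells and 22.2% in lin- cells, against 51.2% and 39.5% of the members. A cell was counted where it had at least 1 read of the gene, and the test was limma on the arcsine of the square root of the share, with batch as a term, Benjamini-Hochberg adjustment over all genes and a threshold of 0.05.

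Cdc42 (chr4:137319696-137357759) was detected in 36.2% and 54.3% of lin+ cells before wounding (replicates 1 and 2), 54.8% on day 6, 88.1% and 86.4% on day 9, and 68.8% and 87.2% on day 11. In lin- cells the shares were 53.2% and 39.6% before wounding, 60.2% on day 6, 85.7% and 93.2% on day 9, and 84.6% and 85.1% on day 11. Every set of days 9 and 11 lay above every set of days 0 and 6 in either lineage, with no overlap. The difference from day 0 was 37.4 percentage points in lin+ cells (limma, adjusted p = 0.00113) and 40.8 in lin- cells (adjusted p = 0.000544). The mean Cdc42 level had a log2 fold change of -0.49 in lin+ and -0.11 in lin- cells, neither past the threshold. It was 0.23 and 0.33 on the mean of the log share per cell, and 0.07 in lin- cells without scaling of the sets.

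Rac1 (chr5:143505481-143528031) was detected in 36.2% and 60.9% of lin+ cells before wounding, 50.5% on day 6, 81.0% and 75.0% on day 9, and 75.0% and 78.7% on day 11. Its lin- shares were 46.8% and 45.8% before wounding, 44.1% on day 6, 89.3% and 86.4% on day 9, and 69.2% and 76.6% on day 11. Again the late wound sets did not overlap those of days 0 and 6. The difference was 28.9 points in lin+ cells (limma, adjusted p = 0.00801) and 34.0 in lin- cells (adjusted p = 0.00186), at log2 fold changes of the mean level of 0.12 and -0.04. In lin- cells the mean of the log share differed by 0.35 natural log units. The log2 fold change there was 0.14 without scaling of the sets.

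Rhoa, the GTPase that drives contraction (chr9:108306160-108337943), was detected in 38.3% and 56.5% of lin+ cells before wounding, 40.9% on day 6, 66.7% and 72.7% on day 9, and 59.4% and 63.8% on day 11. In lin- cells it was detected in 36.2% and 41.7%, then 44.1%, then 71.4% and 59.1%, then 57.7% and 66.0%. The late sets lay above the earlier ones in each lineage, and the difference passed the threshold in lin- cells (24.6 points, limma, adjusted p = 0.0223) but not in lin+ cells (18.2 points, adjusted p = 0.0902). The log2 fold changes of the mean level were -0.53 and -0.54. In lin- cells the mean of the log share differed by 0.05 natural log units. Arhgdib, which holds small GTPases inactive, was found in more lin+ cells (21.5 points, adjusted p = 0.0473) and gave 7.92 points in lin- cells (adjusted p = 0.491). Arhgdib is also abundant in leukocytes, for which the cells were labelled with anti-CD45 before the sort. In lin+ cells the summed immune markers were 147 to 265 CPM in the late sets of the second batch against 18.9 CPM at day 0. In the first batch they were 9.43 to 15.5 CPM against 9.97 CPM. The Arhgdib level in the lin+ late sets of the first batch was 126 and 299 CPM, against 52.5 CPM at day 0. In the second batch it was lower in the late sets, at 309 and 404 CPM against 460 CPM. The part of leukocytes in the Arhgdib share was not tested.

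**Figure D1:**
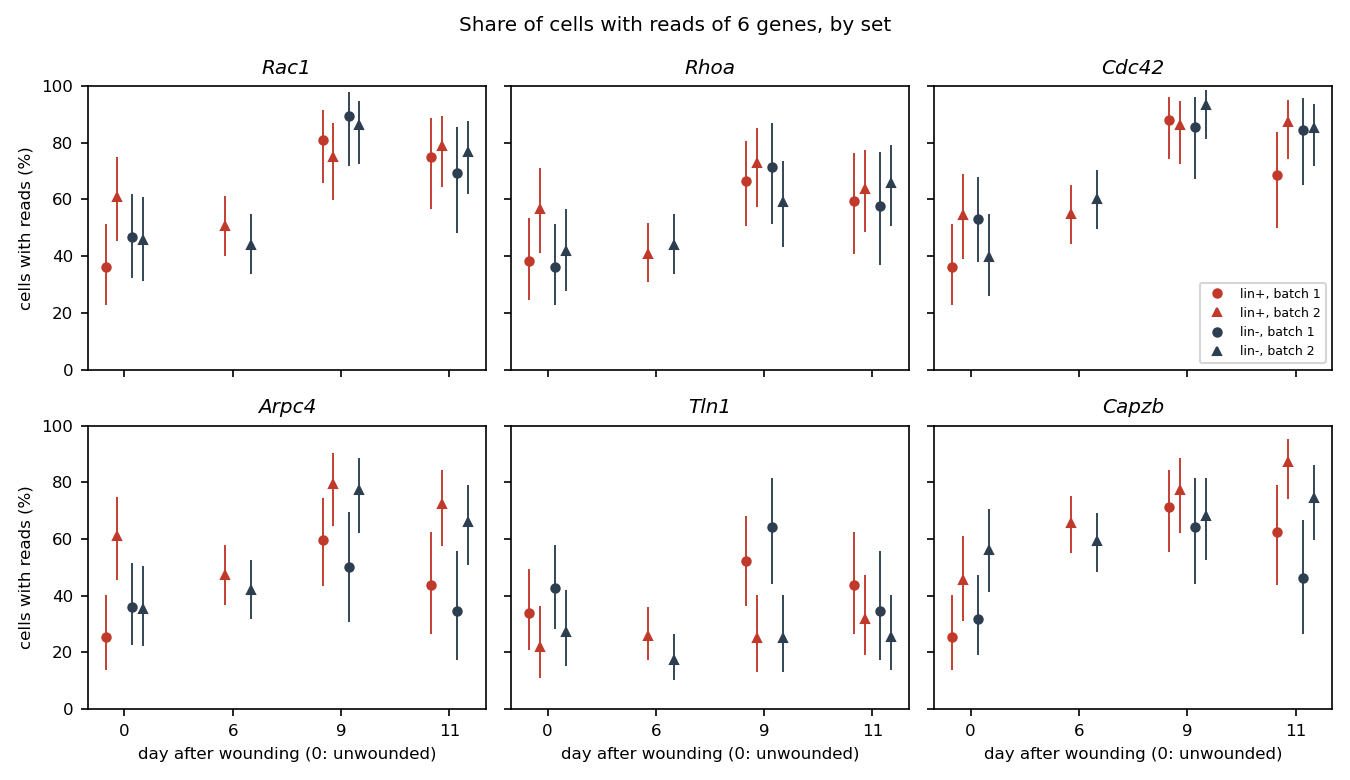
Percent of cells with at least 1 read (vertical axis) of Rac1, Rhoa, Cdc42, Arpc4, Tln1 and Capzb in the 14 sets, by day after wounding. Red is lin+ and dark is lin-, circles are the first and triangles the second sequencing batch, and bars are exact 95% binomial intervals, which cover counting error only. Cdc42 and Rac1 sit higher in every set of days 9 and 11 than in any set of days 0 and 6, while the Tln1 sets overlap.

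Of the 8 members of the Arp2/3 complex, 4 passed in lin+ cells and 2 in lin- cells, where 21.9% and 22.2% of all genes passed. The 2 in lin- cells are thus near the background. In lin+ cells these were Arpc2 (30.8 points), Actr3 (30.0), Arpc5 (29.1) and Arpc3 (23.0), and in lin- cells Arpc5 (26.9) and Arpc3 (22.3). Arpc4 (chr6:113378113-113390447), one of the genes with a CArG box, did not pass in either lineage with the cells as deposited. Its shares in lin+ cells were 25.5% and 60.9% before wounding, 47.3% on day 6, 59.5% and 79.5% on day 9, and 43.8% and 72.3% on day 11, and the sets overlapped. Its difference was 20.6 points in lin+ cells (limma, adjusted p = 0.0517) and 21.2 in lin- cells (adjusted p = 0.0516), with log2 fold changes of the mean level of 0.53 and 0.20. With all cells thinned to 500000 reads it passed in both, at 23.6 points (adjusted p = 0.0359) and 26.1 points (adjusted p = 0.0253).

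Capzb, the beta subunit of capping protein (chr4:139192899-139291820), gave the largest difference among the members in lin+ cells. It was detected in 25.5% and 45.7% of lin+ cells before wounding, 65.6% on day 6, 71.4% and 77.3% on day 9, and 62.5% and 87.2% on day 11. The difference was 39.0 points (limma, adjusted p = 0.000885), and day 6 already lay above day 0. In lin- cells the difference was 19.2 points (adjusted p = 0.0740). Its level in lin+ cells had a log2 fold change of 1.25, with an unadjusted p of 0.0046 that did not hold over all genes (limma, adjusted p = 0.292), and in lin- cells -0.25.

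Of the 5 tested proteins of monomer binding and turnover, all 5 passed in lin+ cells: Cfl1 (24.1 points), Twf1 or twinfilin (22.5), Cap1 (21.7), Tmsb10 (20.1) and Pfn1 (19.5). In lin- cells Twf1 (21.8), Tmsb10 (21.5) and Cfl1 (16.6) passed. The background for each family in this paragraph was 21.9% of all genes in lin+ and 22.2% in lin- cells. Twf1 differed greatly between the batches, in 8.51% to 46.4% of cells in the first and 46.2% to 93.2% in the second. All 4 tropomyosins passed in lin+ cells, Tpm4 at 32.7, Tpm1 at 30.9, Tpm2 at 26.8 and Tpm3 at 26.1 points, and in lin- cells Tpm2 at 27.9, Tpm4 at 26.4 and Tpm3 at 25.3 points. Of the myosin II genes, the light chains Myl12a (23.6 and 23.7 points in lin+ and lin-), Myl12b (20.5 and 22.1) and Myl6 (13.6 and 22.0) passed in both lineages, whereas the heavy chain Myh9 gave 6.57 and 3.77 points and passed in neither.

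Of the 7 proteins that tie filaments to adhesions and the membrane, none passed in lin+ cells, and in lin- cells radixin (Rdx, 21.5 points, limma, adjusted p = 0.0338) passed. The background was 21.9% and 22.2% of all genes. With cells thinned to 500000 reads moesin (Msn) passed in lin+ cells (21.5 points, limma, adjusted p = 0.0468). Rdx, Msn and Vasp then passed in lin- cells (22.2, 28.9 and 17.9 points). At that depth 22.7% and 22.9% of all genes passed. Talin (Tln1, chr4:43531513-43562583), which links integrins to actin, was detected in 34.0% and 21.7% of lin+ cells before wounding, 25.8% on day 6, 52.4% and 25.0% on day 9, and 43.8% and 31.9% on day 11, with overlap between the days. Its difference was 10.4 points in lin+ cells (adjusted p = 0.335) and 2.54 in lin- cells (adjusted p = 0.859). Its mean level had log2 fold changes of -0.78 and -0.80, not past the threshold. Its mean of the log share differed by 0.11 and 0.01 natural log units. Actb had reads in 96.4% to 100% of cells in every set, which left no room for a higher share, while gamma-actin (Actg1) gave 17.7 points in lin+ cells (adjusted p = 0.0433) and 14.7 in lin- cells (adjusted p = 0.0788). Among crosslinkers, alpha-actinin 1 (Actn1) passed in lin- cells alone (31.3 points, adjusted p = 0.005). The LIM protein Pdlim1 passed in both (19.6 and 17.8 points).

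In neither lineage did the remaining 18 members pass with the cells as deposited. Besides Actb, Arpc4, Tln1 and Myh9 they were the Arp2/3 subunits Actr2, Arpc1a and Arpc1b, the crosslinkers Actn4 and Flna, the adhesion and membrane linkers Vcl, Zyx, Vasp, Ezr and Msn, the scaffolds Lasp1, Pdlim5 and Iqgap1, and the GTPase Rhoc. In lin+ cells Iqgap1 gave 0.441 points and Arpc4 20.6, with the others except Actb between them, and in lin- cells they ran from -0.958 points for Ezr to 21.2 for Arpc4.

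The median difference over the 43 members was 18.2 points in lin+ cells, against 6.85 for all genes tested, and 14.8 points in lin- cells, against 6.86. The difference was above 0 in 42 of 43 members in lin+ and in 41 in lin- cells, and in 85.8% and 84.5% of all genes tested. In lin+ cells 33 members, and in lin- cells 26, had a higher share in all 4 late sets than in the day 0 set of the same replicate, as did 50.1% and 42.9% of all genes tested. The members are also more widely detected to begin with, with a median share of 39.8% of day 0 cells against 10.2% for all genes, so the medians of members and of all genes do not start from the same share. In both lineages 14 members passed, in lin+ alone 8 and in lin- alone 3. This overlap was not counted over all genes, so whether it is particular to the members was not tested. The difference between the lineages' changes was tested with wounds of all days together and called no gene (limma, 0% of all genes, 537 genes and 5 members at an unadjusted p under 0.05).

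**Figure D2:**
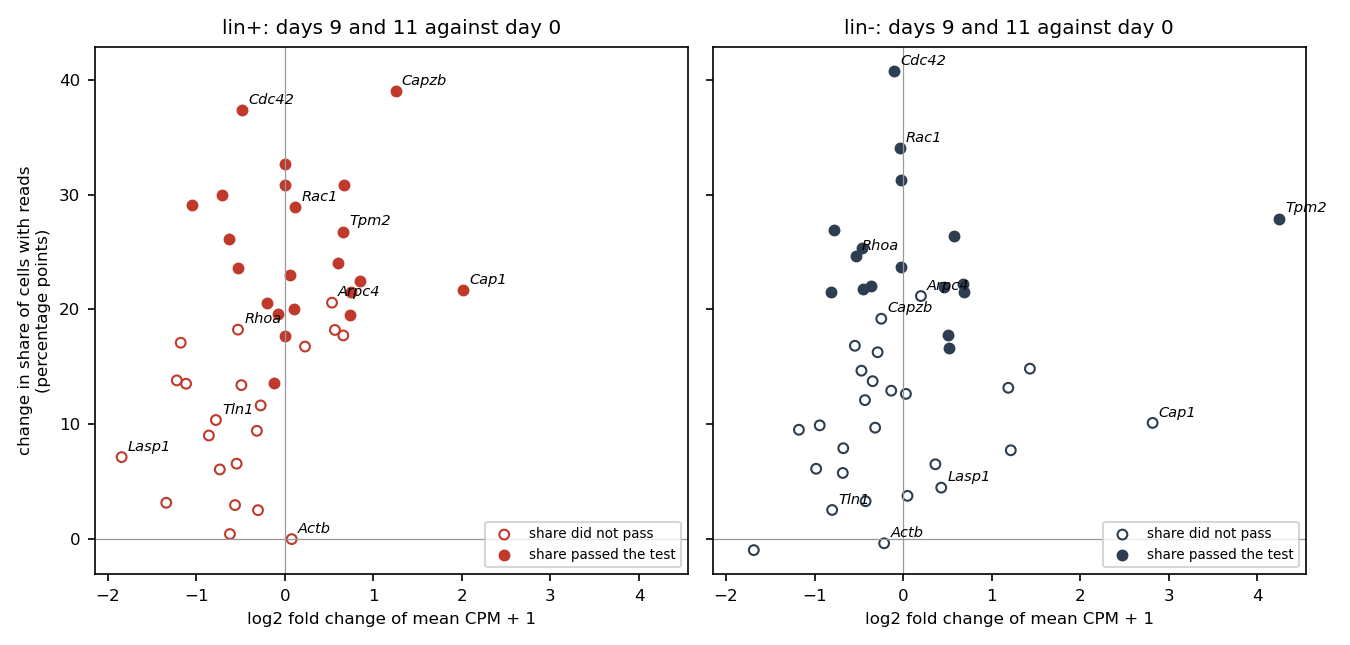
Change of each of the 43 tested members from day 0 to days 9 and 11 in lin+ and lin- cells, with the log2 fold change of the mean level on one axis and the difference in the percent of cells with reads, in percentage points, on the other. The points spread to both sides of 0 in level, with medians of -0.20 and -0.21, and lie almost all above 0 in share, with medians of 18.2 and 14.8 points. Of all genes tested, 85.8% and 84.5% lay above 0 in share.

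The number of genes detected was also higher in most late sets. At an equal depth of 500000 reads per cell, which left out 22 cells with fewer reads, the median number of genes detected was 1434 to 1870 in the sets of days 0 and 6 and 2367 to 2863 in those of days 9 and 11, except 1682 in lin- day 11 replicate 1. With the shares taken at this equal depth, 21 members passed in lin+ cells, 19 of them among the 22, and 22 in lin- cells, with 16 of the 17, where 22.7% and 22.9% of all genes passed. The share calls rested on the batch term and on few sets: without the batch term no member and no other gene passed in either lineage, and without day 0 replicate 1, the skin with the lowest median number of genes detected, 0 members passed in lin+ (0.0561% of all genes) and 5 in lin- cells (9.05%), though 41 of 43 members still lay higher in lin+ cells, by a median of 11.3 points. Without day 0 replicate 2 the counts were 16 and 1 (9.36% and 1.37% of all genes), and without day 9 replicate 1 they were 12 and 8 (9.32% and 10.7%).

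Mean levels gave another picture. They were compared as log2 of the mean CPM over the cells of a set plus 1, after scaling the sets by a median of ratios. Against day 0, late wounds called 0 members in lin+ cells (limma, 3 at an unadjusted p under 0.05; edgeR on summed reads also 0) and 1 in lin- cells, against 0.0935% and 0.187% of all genes. The median log2 fold change of the members was -0.20 in lin+ and -0.21 in lin- cells, against 0.16 and 0.12 over all genes. The level was above day 0 in 18 and 16 of the 43 members, and in 55.8% and 53.7% of all genes. Among cells with reads of a gene, the median change of the members' level from day 0 ranged from -0.34 to 0.08 on the log2 scale over the 8 late sets, and that of all genes tested from -0.37 to 0.11. The higher shares were not matched by called rises of the mean.

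The member called by level was Tpm2 (chr4:43513726-43523583), the beta-tropomyosin best known from muscle. Its mean level in lin+ cells was 145 and 81.2 CPM before wounding, 102 on day 6, 344 and 72.1 on day 9, and 308 and 114 on day 11. In lin- cells it was 29.9 and 0.0185 CPM before wounding, 69.3 on day 6, 230 and 50.8 on day 9, and 188 and 55.2 on day 11. Unwounded lin- cells were the lowest in each batch, below all other sets. The lin- level rose from day 0 to the late wounds by 4.24 (log2 fold change, SE 0.72, limma, adjusted p = 0.0492), and at day 0 lin+ exceeded lin- by 4.29 (SE 0.76, adjusted p = 0.0443). In lin+ cells the late change was 0.66 (SE 0.72, adjusted p = 0.775).

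The size of these folds rests on the near-absence of Tpm2 in lin- day 0 replicate 2, where 2 of 48 cells had reads. With 10 CPM added before the log in place of 1, the values were 2.57 for the lineages (adjusted p = 0.056) and 2.55 for lin- late wounds (adjusted p = 0.0415). In lin- day 0 replicate 1, 1 cell held 93% of the summed level. Without the 5 cells with melanocyte markers the calls were lost, at 4.29 (adjusted p = 0.0522) between the lineages and 4.27 (adjusted p = 0.0559) in lin- late wounds. In IFE-B cells alone the lineage difference at day 0 was 1.00 (adjusted p = 0.895), and edgeR on summed reads gave 6.82 (adjusted p = 0.395). Without day 0 replicate 2 the lineage difference in Tpm2 was 2.24 (limma, adjusted p = 0.037) and the lin- late change 2.73 (adjusted p = 0.0358). Leaving out any 1 of the wound mouse sets moved the adjusted p of the lineage difference to between 0.0554 and 0.0981, and leaving out any 1 of those of days 9 and 11 moved that of the lin- late change to between 0.165 and 0.416. The lineage difference in wounds minus that at day 0 was -3.61 (SE 0.90, adjusted p = 0.254).

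The share of cells with Tpm2 was likewise lowest in unwounded lin- cells within each batch. In lin+ cells it was 29.8% and 32.6% before wounding, 37.6% on day 6, 66.7% and 56.8% on day 9, and 53.1% and 55.3% on day 11. In lin- cells it was 14.9% (7 of 47 cells) and 4.17% before wounding, 23.7% on day 6, 57.1% and 29.5% on day 9, and 26.9% and 36.2% on day 11. In all 7 pairs of sets from the same skin the lin+ share was the higher. Tpm2 was the only member called between lineages in wounds by share (19.2 points, limma, adjusted p = 0.0278), where 1.88% of all genes were called, and at day 0 its difference was 21.7 points (adjusted p = 0.198). In cells with Tpm2 reads, 6 smooth muscle and pericyte markers summed to 34.1 CPM in the first and 53.6 in the second batch, against 13.0 and 12.5 in cells without, and the median number of genes detected was 2899 and 3220 against 1953 and 2216. At day 0 these markers were 5.94 and 0.0448 CPM in lin+ against 16.3 and 10.2 CPM in lin- cells, and in the late sets of the second batch 6.29 to 14.8 against 59.1 to 147 CPM, lower in lin+ cells in both. In the late sets of the first batch they were 0.418 to 54.6 CPM in lin+ and 6.02 to 47.7 CPM in lin- cells, which overlap. Of these markers Acta2 had reads in 123 cells, Tagln in 20, Cnn1 in 19, Myh11 in 15, Des in 4 and Rgs5 in 1.

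**Figure D3:**
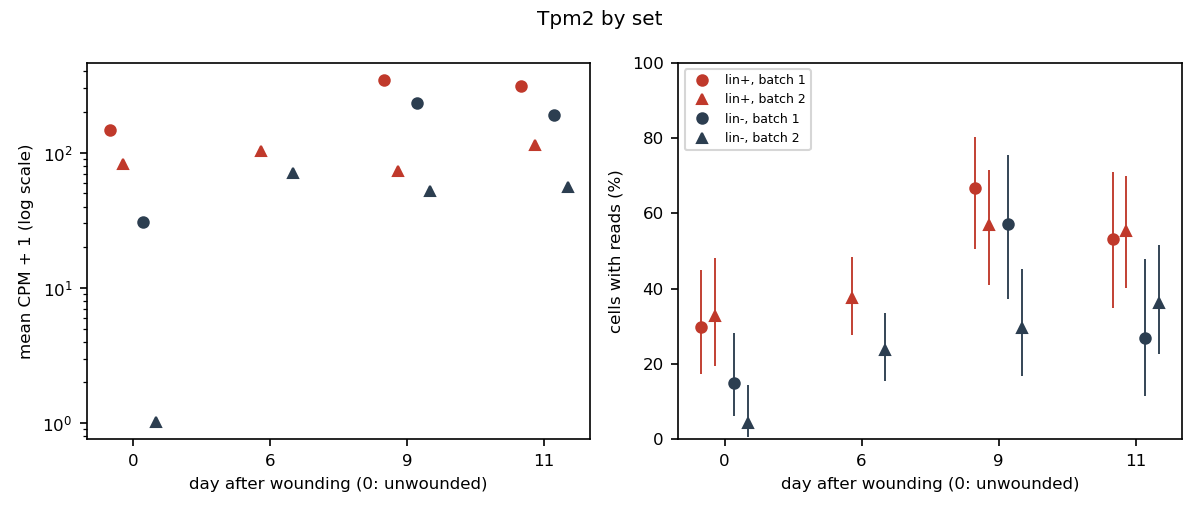
Mean level of Tpm2 in CPM and percent of cells with Tpm2 reads in the 14 sets, by day after wounding. Red is lin+ and dark is lin-, circles are the first and triangles the second batch. In each batch the unwounded lin- set is the lowest, at 29.9 and 0.0185 CPM, with reads in 14.9% and 4.17% of its cells.

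Wounds of day 6 gave no call among the members. None was called by level in lin+ cells (limma, 1 at an unadjusted p under 0.05, edgeR 0; 0% of all genes called) or in lin- cells (6 at an unadjusted p under 0.05, edgeR 0; 0.0374% of all genes). By share none was called either (limma, 2 members in lin+ and 5 in lin- cells at an unadjusted p under 0.05), against 0.0468% and 0.0748% of all genes, and the median difference of the members was -0.30 points in lin+ and -4.40 in lin- cells. Against day 6, late wounds called no member by level (0.00935% and 0.0374% of all genes; 1 and 3 members at an unadjusted p under 0.05, edgeR 0). By share 1 member in each lineage was called, where 0.449% of all genes were called in lin+ and 0.365% in lin- cells. At an unadjusted p under 0.05 (limma) were 24 members in each lineage, and 1943 and 1805 of all 10691 genes. Twf1 was found in 46.2% of lin+ day 6 cells and in 86.4% and 87.2% of the late cells of the same batch (42.0 points, limma, adjusted p = 0.0368), and gave 31.2 points in lin- cells (adjusted p = 0.0828). Iqgap1, a scaffold of Rac and Cdc42 at the leading edge, was found in 61.3% of lin- day 6 cells and in 97.7% and 93.6% of late cells of that batch (32.8 points, adjusted p = 0.0393), and gave 23.0 points in lin+ cells (adjusted p = 0.0714). Both genes were high at day 0 in this batch too, Twf1 in 69.6% of lin+ and Iqgap1 in 97.9% of lin- cells, so that day 6 gave the lowest share of that batch and lineage. Day 6 was sequenced in the second batch alone, with 1 set per lineage.

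At day 6 single cells decided some means. In 1 lin+ IFE-B cell with 373 genes and 176878 reads, the members took 66.9% of the cell's summed RPKM, with 52.3% in Actb and 14.5% in Actr2. In 1 lin- cell with 331 genes and 112361 reads, Pfn1 took 14.7% of the summed RPKM. In no other cell did the members exceed 6.61% of the cell's total. Leaving out the 15 cells with fewer than 500 genes lowered Actb in lin+ day 6, before scaling of the sets, from 8398 to 2830 CPM and Actr2 from 1959 to 409 CPM, whereas Actb in lin- day 6 went from 3131 to 3331 CPM. The log2 fold change of Actb from day 0 to day 6 in lin+ cells turned from 0.50 to -1.09 (SE 0.39, limma, adjusted p = 1.0), and in lin- cells it was -1.20 with and -1.23 without these cells. More than 50% of a set's summed level came from 1 cell in 62 of 609 pairs of a member and a set, over 26 members, with as many as 12 of the 44 members in lin- day 0 replicate 1.

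Between the lineages few members were called. At day 0, Tpm2 was the only member called by level, where 0.43% of all genes were called, and no member was called by share (limma, 6 at an unadjusted p under 0.05; 0.168% of all genes). In wounds no member was called by level (limma, 1 at an unadjusted p under 0.05, edgeR 0; 0.262% of all genes). The median log2 difference of lin+ from lin- was -0.03 over the members at day 0, the same as over all genes, and -0.07 in wounds against -0.02. The change of the lineage difference from day 0 to wounds called 0 members by level (6 at an unadjusted p under 0.05, edgeR 0; 0.0187% of all genes).

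A score was also taken for each cell. It is the mean over the 44 genes of the natural log of 1 plus 10000 times the gene's share of the cell's total. That total is of reads in the first batch and of RPKM in the second. The mean score in lin+ cells was 0.441 (SD 0.199 over 47 cells) and 0.719 (SD 0.170 over 46) before wounding, 0.649 on day 6, 0.676 and 0.819 on day 9, and 0.695 and 0.875 on day 11. In lin- cells it was 0.463 and 0.734 before wounding, 0.593 on day 6, 0.690 and 0.909 on day 9, and 0.684 and 0.834 on day 11. All 8 late sets lay above the day 0 set of the same lineage and replicate, by less than 2 SD of the cells. In the same sets the median number of members detected went from 15 in both lineages at day 0 replicate 1 to 27.5 and 28.5 at day 9, and the genes detected from 1776 and 1795 to 3080 and 3228. Across cells the score followed the number of genes detected, with a Spearman correlation of 0.693 in the first and 0.681 over 462 cells of the second batch. It followed the reads less, at 0.595 and 0.0482. These are across cells of the same sets and stand as a description, and the part of the gene number in the score was not tested.

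**Figure D4:**
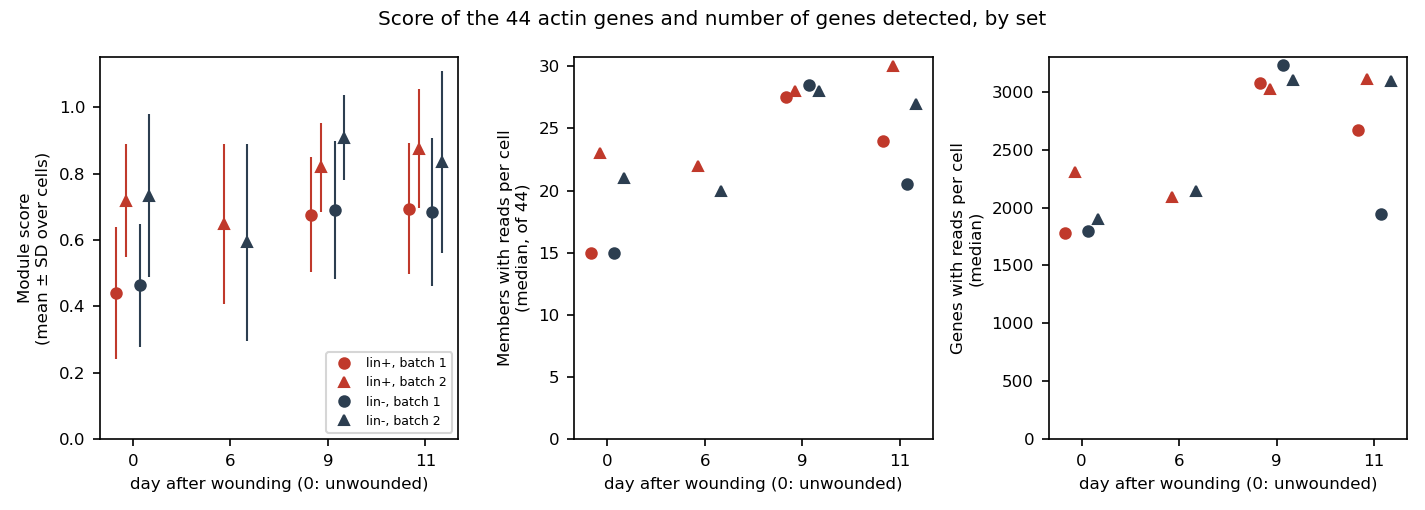
Mean score of the 44 genes in each of the 14 sets by day after wounding, with the SD over cells as bars. The score is the mean natural log of 1 plus 10000 times the share of a cell's total. Red is lin+ and dark is lin-, circles are the first and triangles the second batch. Within each batch both lineages are higher at days 9 and 11 than at day 0, and the second batch lies above the first at day 0.

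The score was also set out by deposited identity. Over sets with at least 5 cells of an identity, mean scores of IFE-B cells ran from 0.388 to 0.757 in the first batch and from 0.578 to 0.912 in the second. OB cells ran from 0.440 to 0.734 and from 0.546 to 0.929, and upper hair follicle cells of the kind named uHF-I from 0.523 to 0.649 and from 0.706 to 0.909. Against the IFE-B cells of the same set, OB cells were lower in 6 of 9 sets, with a median of -0.040, and uHF-I cells in 4 of 8, with a median of 0.003. Sebaceous gland cells (SG), pooled over days and lineages, had a mean of 0.470 over 7 cells in the first batch and 0.602 over 16 in the second. A median of 0.917% and 0.944% of their total lay in the members, against 1.40% and 1.77% in pooled IFE-B cells. In the 1 set with at least 5 SG cells, lin- day 6, their mean score was 0.565 against 0.578 in IFE-B cells. The identities come from clusters of the same cells, so no test was made. In IFE-B cells alone 21 members passed by share in lin+ late wounds and 4 in lin- late wounds, where 16.5% and 6.97% of all genes passed, so that the 4 are near the background.

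Beyond the 44 genes, 83 of 103 other genes of actin regulation and adhesion were tested. None was called by level in any of the 9 comparisons, and the median log2 fold change in late wounds was -0.16 in lin+ and -0.26 in lin- cells. By share 22 were called higher and 1 lower in lin+ late wounds, and 25 higher in lin- late wounds, with medians of 9.86 and 10.4 points. Of all genes tested, 21.9% and 22.2% were called, with medians of 6.85 and 6.86 points. Among those called in both were the bundling protein Fscn1 (15.2 and 17.5 points), Cald1, which encodes caldesmon (19.9 and 29.5), and coronin 1B (Coro1b, 22.2 and 29.6). The one called lower in lin+ cells was Ccn2, a matricellular target of YAP and SRF signalling, at -8.55 points (limma, adjusted p = 0.0433), against 7.09 in lin- cells (adjusted p = 0.299). Its lin+ level was near the floor, at 7.08 and 2.22 CPM at day 0. It was 24.9 CPM on day 6, 0 and 4.23 on day 9, and 0 and 3.04 on day 11. These 4 were named after their values were seen. Ladinin (Lad1), a basement membrane anchoring protein, gave 28.0 points in lin+ cells (adjusted p = 0.00726) and 17.8 in lin- cells (adjusted p = 0.0802). Cnbp, a nucleic acid binding protein, gave 29.0 (adjusted p = 0.00131) and 16.1 points (adjusted p = 0.0194), and integrin beta 1 (Itgb1) 11.5 (adjusted p = 0.272) and 10.4 (adjusted p = 0.340). Between the lineages in wounds, gelsolin (Gsn, 18.3 points), plastin 3 (Pls3, 21.9) and Marcks (17.4) were found in more lin+ cells, and calponin 3 (Cnn3, -17.7) and kindlin-2 (Fermt2, -15.5) in fewer, each past the threshold. These 5 were likewise named after their values were seen.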

How the data were processed

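The authors aligned Smart-seq2 reads of single cells to GRCm38 with STAR 2.2 after Trimmomatic 0.27 and counted genes with featureCounts, and the labels name Seurat 3.2.2. The first batch was deposited as read counts, the second (462 cells) by the authors as RPKM. Whole reads were recovered from the second batch, where 99.97% of values below 200 reads came within 0.02 of a whole number. These reads were used for depth, thinning and edgeR. The main levels and scores of that batch kept the RPKM. Of 753 samples, 6 were blank wells, and the annotated cells were used with their deposited identities. The remaining samples, 1048 further per-sample columns and doublet calling were not used here. Libraries carry no molecular identifiers. Intervals of shares are taken over cells, so they cover counting error only and not the spread between mice.

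Deposited values were scaled to each cell's total (CPM) and averaged over the 14 sets, which were the replicates. Levels are thus shares of reads in the first batch and shares of RPKM in the second. For replicates 1 and 2 of days 9 and 11 the study used 1 mouse each, so the p-values rest on few animals. limma 3.58.1 (R 4.3.3) was run on log2(CPM + 1) for genes with at least 10 CPM in at least 2 sets, with lineage by day and batch, or with the mouse set as a block for lineage comparisons, since both lineages came from the same skin. Deviations of paired sets from the fit of days correlated at -0.213 to -0.011, and those of unpaired sets of the same replicate at -0.304 to -0.095. With 2 replicates per group and a batch term, the fit itself pushes such values below 0. They therefore cannot show whether the shared skin mattered. Adding 1 CPM understates the change of low genes. The test of shares, thinning to 500000 reads and the filters on cells with few genes or with over 1000 CPM in melanocyte markers were chosen after seeing the data. Alternatives included edgeR 4.0.16 on summed reads. The members and lists were chosen with earlier results of these data known. Named in full were members past the threshold, the members Rac1, Rhoa, Cdc42, Arpc4 and Tln1, pathway genes past the threshold (at most 5 in each direction) and Itgb1, Lad1 and Cnbp, as genes the study discusses. Coordinates are from RefSeq, GRCm38.p6, the build of the alignment.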

Additional observations from a re-analysis of the deposited data

How the results depend on the processing

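Counts below are of genes or members past the threshold, and the cause of each shift was not tested. For lin+ and lin- late wounds and the lineages at day 0 in turn, all genes called by level were 1, 12 and 5 with 10 CPM added. With lineages in wounds as the last of the counts, they were 1, 3, 17 and 2 with edgeR, 69, 300, 5 and 50 with the mean of the log share per cell, 1, 5, 16 and 5 with no filter, and 0 throughout in IFE-B cells alone. In late wounds they were 3 and 4 with first-batch RPKM in place of counts, and in lin- cells 4 without the 4 cells of fewer than 200 genes and 3 without the 5 cells with melanocyte markers. The call of Tpm2 was lost (0 members) in both comparisons under edgeR, the mean of the log share, no filter, first-batch RPKM, IFE-B cells alone and without the 5 cells with melanocyte markers, between lineages also with 10 CPM added, and in lin- late wounds also without the 4 cells and without the batch term. With the mean of the log share 1 member was called in lin+ late wounds. That mean is in natural log units and includes cells without reads, so its sizes are not log2 fold changes. Of the opposite sign with it were Rac1 in lin- cells (0.35), Rhoa in lin- (0.051), Cdc42 (0.23 in lin+, 0.33 in lin-) and Tln1 (0.11 and 0.011). The log2 fold change of Tln1 in lin+ cells was 0.22 in IFE-B cells. Those of Rac1 and Cdc42 in lin- cells were 0.14 and 0.069 without scaling of the sets. Without the replicate block (the batch or mouse-set term) 0 genes were called by level in late wounds, and by share 0 members in any comparison and 0 genes in late wounds, 6 at day 0 and 125 in wounds. In IFE-B cells 745 genes passed by share in lin- late wounds and 21 between lineages in wounds, with 0 genes at day 0 and 0 members between lineages or against day 6. The calls of Twf1 and Iqgap1 against day 6 were lost (0) when thinned and without cells under 500 genes, which also ended the call of Tpm2 between lineages in wounds.

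Leaving out 1 mouse set at a time moved the genes called by level from 0 to 318 in lin+ late wounds, 0 to 170 in lin- late wounds, 13 to 471 at day 0 and 8 to 29 in wounds, and the members called from 0 to 1 in lin- late wounds, lin- day 6 and the interaction and from 0 to 2 at day 0. By share it moved members from 0 to 22 in lin+ late wounds and from 1 to 19 in lin- late wounds, and from 0 to 1, 0 to 2 and 0 to 1 in lin+ and lin- late wounds against day 6 and in wounds. Genes called by share ranged from 6 to 2780, 147 to 2971, 0 to 35 and 49 to 231. Rac1 ranged from -0.23 to 0.47 in lin+ and -0.25 to 0.17 in lin- cells, Cdc42 in lin- cells from -0.44 to 0.22 and the Tln1 share in lin- cells from -4.24 to 9.32 points. Members that passed by share were 0 in lin+ and 5 in lin- cells without day 0 replicate 1, 16 and 1 without day 0 replicate 2, and 12 and 8 without day 9 replicate 1.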
